A study of Mus musculus with 12 samples.

Results

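Heparan sulfate synthesis and the syndecans were followed through 10 genes in mouse B cell acute lymphoblastic leukemia cells (B-ALL). The genes were picked by symbol, and each of the 10 has a row among the 12151 genes of the table. They are Ext1, Ext2 and Extl3, whose products build the sugar chain, Ndst1, Ndst2, Glce, Hs2st1 and Hs6st1, whose products modify it, and Sdc1 and Sdc4, which encode proteins that carry it. The choice was made with results of these data known. Ndst1 had stood out by its difference in β-catenin effect between the backgrounds, and Sdc4 by its fall with β-catenin in WT cells. The values of Ndst1 in every comparison are therefore given as a description with no test, and so are those of Sdc4 except in the KO libraries, which its choice did not use.

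Heparan sulfate is a long sugar chain attached to a few core proteins at the cell surface and in the matrix. A linker is first placed on a serine of the core protein, the chain is then lengthened by alternating sugars, and deacetylation, epimerization and sulfation finally cut patterns into it that growth factors, chemokines and Wnt ligands bind. Syndecans are core proteins that span the membrane, and in the B lineage syndecan-1 (CD138) is best known as a surface marker of plasma cells.

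RNA was measured in 12 libraries of bone marrow pre-B cells transformed with BCR-ABL1, all carrying Ctnnb1Ex3fl/+, in which Cre removes the exon that marks β-catenin for degradation. Cells were edited with Cas9 and nontargeting guides (sgNTC, called WT) or guides to Ikzf1 and Ikzf3, the genes of the B lymphoid factors Ikaros and Aiolos (called KO), and lines were grown from single cells. Each background then received a vector with GFP for ERT2, the control, or for Cre-ERT2, which 4-hydroxytamoxifen (4-OHT) activates, so that Cre-ERT2 libraries stand for stabilized β-catenin. This gave 4 groups of 3 libraries, an ERT2 and a Cre-ERT2 group in each background.

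The labels give a time of 1 day after 4-OHT for chromatin experiments alone, and they do not say whether the 3 libraries of a group are separate clones or cultures, so that p-values may measure a technical spread. Genotype and clone cannot be told apart in the KO against WT comparisons. Values are log2 expression as normalized by the authors, with no counts, so the depth is unknown, and they are not per length, so levels are compared between groups and not between genes. Calls were made with limma over all 12151 genes, at a Benjamini-Hochberg adjusted p under 0.05. Library medians lay between 9.06 and 9.11. Ikzf1 RNA lay between 13.66 and 13.75 in WT and between 14.56 and 14.76 in KO libraries, above WT in each of the 6 libraries labelled KO, and Ikzf3 RNA lay between 11.59 and 11.93 in WT and between 10.97 and 11.34 in KO libraries. RNA level alone does not show whether an edited gene still gives protein. Ctnnb1 lay between 12.43 and 12.46 in ERT2 WT and between 12.50 and 12.53 in Cre-ERT2 WT libraries. It lay between 12.57 and 12.66 in ERT2 KO and between 12.73 and 12.78 in Cre-ERT2 KO libraries. Ctnnb1 was called higher in KO cells (0.17 with ERT2 and 0.24 with Cre-ERT2). With β-catenin it was called higher in KO cells (0.13) and not called in WT cells (0.06). All 10 pre-B cell markers listed had a row, against 0 of 7 erythroid and 0 of 8 stromal markers. The summed level of the pre-B cell markers lay between 16.68 and 16.74 in WT and between 16.27 and 16.36 in KO libraries. Of the 10, 6 were called lower and 2 higher in KO cells with ERT2, and 7 lower and 2 higher with Cre-ERT2. Of all genes, 29.3% were lower and 29.8% higher with ERT2, and 28.6% and 30.4% with Cre-ERT2. With β-catenin 5 of the 10 were called lower and 1 higher in either background. Of all genes, 5.95% were lower and 5.93% higher in WT cells, and 5.33% and 7.27% in KO cells. Of 7 T cell markers, Cd5 and Cd28 had a row, while the defining Cd3e, Cd3d and Cd3g had none. The summed level of Cd5 and Cd28 was at most 7.86 in ERT2 libraries. It lay between 8.01 and 8.11 in Cre-ERT2 WT and between 9.38 and 9.49 in Cre-ERT2 KO libraries. With β-catenin Cd28 rose by 0.44 in WT and 1.96 in KO cells, and Cd5 by 0.51 and 1.02. Of 8 myeloid markers 3 had a row, with a summed level of at most 7.77 in WT and at least 8.54 in KO libraries. Of these 3, Lyz2 was higher in KO cells (0.99 with ERT2 and 1.23 with Cre-ERT2), Itgam was lower (-0.15 and -0.18), and Cd68 differed by 0.06 and 0.03. The part of these marker genes in the results below was not tested.

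The bases before the start of Sdc4 and Hs6st1 are shown because these were the members with the largest fall and the largest rise between KO and WT libraries. Capitals mark GGGAA or its reverse complement TTCCC, the core of the sequence that Ikaros proteins bind. Both are printed 5′ to 3′ on the gene's strand, from RefSeq starts on GRCm38.p6, for Sdc4 at chr2:164443189-164443438 on the minus strand and for Hs6st1 at chr1:36068150-36068399 on the plus strand, and neither stretch overlaps an annotated exon of its gene. The Sdc4 stretch lies before the RefSeq start, but inside the GENCODE gene, whose span begins further upstream on this strand.
Sdc4: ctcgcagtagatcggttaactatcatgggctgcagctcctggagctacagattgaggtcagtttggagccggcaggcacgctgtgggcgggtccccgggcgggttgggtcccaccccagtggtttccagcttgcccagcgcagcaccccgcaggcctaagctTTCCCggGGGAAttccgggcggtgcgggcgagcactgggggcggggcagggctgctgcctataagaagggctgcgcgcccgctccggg
Hs6st1: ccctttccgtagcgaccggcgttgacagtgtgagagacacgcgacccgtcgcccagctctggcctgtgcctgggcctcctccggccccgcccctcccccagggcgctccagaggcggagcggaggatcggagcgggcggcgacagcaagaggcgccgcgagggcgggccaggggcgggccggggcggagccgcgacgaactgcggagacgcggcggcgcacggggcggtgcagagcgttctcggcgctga

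In these 250 bases Sdc4 held 2 matches, 1 on each strand and close together, and Hs6st1 held 0. Among the 7 members with a window in the RefSeq table, Ext2, Ndst2 and Glce held 1 match each and Hs2st1 and Sdc1 held 0. A match is common, since 56.2% of 32851 promoter windows of this length held at least 1. The TCF/LEF core CTTTG or its reverse complement CAAAG, which 48.6% of windows held, occurred in 2 places in the Ext2 window and in 1 place in that of Sdc1, and in none of the other 5 windows. These are letter matches and show no binding.

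Sdc4, the core protein syndecan-4, which links the cell surface to adhesion and growth factor signaling, had the widest range of group means among the 10 genes, 2.01 on the log2 scale. Its log2 level was 12.59, 12.63 and 12.61 in the ERT2 WT libraries and 12.21, 12.14 and 12.22 in the Cre-ERT2 WT libraries. It was 10.82, 10.83 and 10.87 in the ERT2 KO libraries and 10.56, 10.63 and 10.62 in the Cre-ERT2 KO libraries. The 4 groups did not overlap, and each step in their order was wider than the SD of either group. KO libraries were lower than WT libraries by 3.42-fold with ERT2 (log2 difference -1.77 ± 0.03, SE) and by 3.00-fold with Cre-ERT2 (-1.58 ± 0.03). In bulk RNA, fewer cells with a transcript and less of it per cell cannot be told apart. With stabilized β-catenin the level was lower in WT cells (-0.42 ± 0.03), the value that led to its choice. In KO cells, whose libraries had no part in that choice, it fell by 1.18-fold (log2 difference -0.24 ± 0.03, adjusted p = 9.52e-05). The SE in KO cells rests on the spread of all 12 libraries, WT ones included, so the test is not fully independent of the choice. The WT and KO values differed by 0.19 ± 0.04 on the log2 scale. This gap contains the WT value on which Sdc4 was picked, so it is a description and nothing is read from it. The gene lies on chromosome 2 of GRCm38, at 164424247 to 164443887.

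Sdc1, which encodes syndecan-1, moved the other way between backgrounds. Its log2 level was 9.46, 9.44 and 9.45 in ERT2 WT and 9.66, 9.64 and 9.64 in ERT2 KO libraries. It was 9.25, 9.33 and 9.27 in Cre-ERT2 WT and 9.58, 9.54 and 9.49 in Cre-ERT2 KO libraries. The KO libraries were above all WT libraries with the same vector, and no comparison of 2 groups overlapped. Sdc1 rose in KO against WT cells by 1.14-fold with ERT2 (log2 difference 0.19 ± 0.03, SE, adjusted p = 7.94e-05) and by 1.19-fold with Cre-ERT2 (0.26 ± 0.03, adjusted p = 6.55e-06). With β-catenin it fell in WT cells (-0.17 ± 0.03, adjusted p = 0.00202) and, close to the threshold, in KO cells (-0.11 ± 0.03, adjusted p = 0.0304). The fall in KO cells missed the threshold when any of the ERT2 KO libraries, or Cre-ERT2 KO replicate 2 or 3, was left out (adjusted p up to 0.0990). Its difference between backgrounds was 0.06 ± 0.04 and did not pass the test (adjusted p = 0.486). Prdm1, the plasma cell regulator, rose with β-catenin in both backgrounds (0.66 ± 0.02 and 0.64 ± 0.02). Of the 7 plasma cell markers 6 had a row, and their summed level lay between 13.03 and 13.08 in ERT2 WT, 13.21 and 13.24 in Cre-ERT2 WT, 12.74 and 12.76 in ERT2 KO, and 13.03 and 13.04 in Cre-ERT2 KO libraries. This sum includes Sdc1, and its members went both ways between KO and WT cells, with Irf4 (-0.77 with ERT2 and -0.52 with Cre-ERT2) and Xbp1 (-0.27 and -0.15) lower and Tnfrsf13b (0.41 and 0.43) higher. The part of these markers in the Sdc1 values was not tested.

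**Figure D1:**
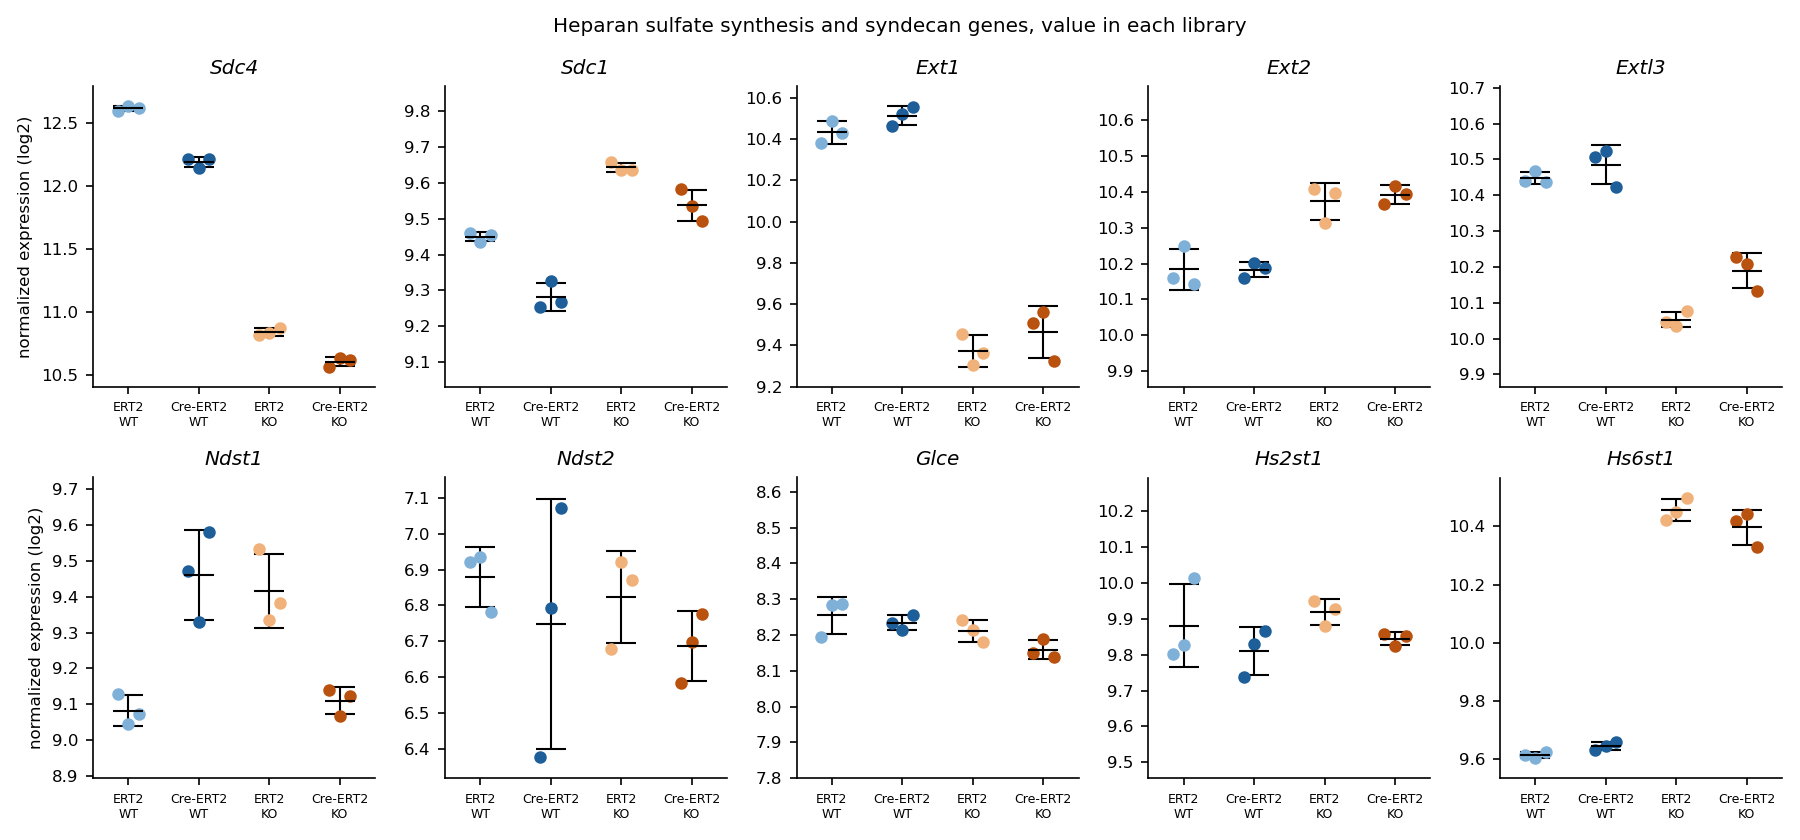
Normalized log2 expression of the 10 genes in each library, with a point for each library, the long bar at the group mean and the error bars at 1 SD (n = 3). Each panel has its own axis, which does not start at 0. Sdc4 and Ext1 sat lower and Hs6st1 higher in all KO libraries, and the Ndst1 groups crossed between the backgrounds.

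Ext1 and Ext2 encode the 2 subunits of the polymerase that lengthens the chain, and they moved in opposite directions. Ext1 was at 10.38, 10.49 and 10.43 in ERT2 WT and at 9.46, 9.30 and 9.36 in ERT2 KO libraries. With Cre-ERT2 it was at 10.46, 10.52 and 10.56 in WT and at 9.51, 9.56 and 9.32 in KO libraries. Every KO library was below every WT library, by a gap far wider than the largest SD of a group, 0.13. Ext1 fell by 2.08-fold in KO against WT cells with ERT2 (log2 difference -1.06 ± 0.06, SE, adjusted p = 6.93e-09) and by 2.07-fold with Cre-ERT2 (-1.05 ± 0.06, adjusted p = 7.51e-09). β-catenin gave 0.08 ± 0.06 in WT and 0.09 ± 0.06 in KO cells, and neither passed the test (adjusted p = 0.438 and 0.362). Without the third Cre-ERT2 KO library the value in KO cells was 0.16 (adjusted p = 0.0492). The 95% interval of the difference between these effects ran from -0.17 to 0.19. Ext1 spans 282.1 kb of chromosome 15 (53064038 to 53346159).

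Ext2 was at 10.16, 10.25 and 10.14 in ERT2 WT and at 10.41, 10.31 and 10.40 in ERT2 KO libraries. It was at 10.16, 10.20 and 10.19 in Cre-ERT2 WT and at 10.37, 10.42 and 10.39 in Cre-ERT2 KO libraries. KO and WT libraries did not overlap with either vector. Ext2 rose by 1.14-fold with ERT2 (log2 difference 0.19 ± 0.03, adjusted p = 0.000363) and by 1.16-fold with Cre-ERT2 (0.21 ± 0.03, adjusted p = 0.000161). β-catenin moved it by at most 0.02 in either background, with 95% intervals within -0.07 and 0.09. Ext2 lies on chromosome 2, at 93661028 to 93822568.

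Extl3, which starts the heparan sulfate chain on the linker, fell in KO cells. Its level lay between 10.42 and 10.52 in WT libraries and between 10.04 and 10.23 in KO libraries, without overlap. The fall was 1.32-fold with ERT2 (log2 difference -0.40 ± 0.03, adjusted p = 3.29e-07) and 1.23-fold with Cre-ERT2 (-0.30 ± 0.03, adjusted p = 5.04e-06). With β-catenin it rose in KO cells (0.14 ± 0.03, adjusted p = 0.0147) whereas in WT cells the test was not passed (0.04 ± 0.03, adjusted p = 0.550). That rise missed the threshold without the second ERT2 KO library or the first or second Cre-ERT2 KO library (adjusted p up to 0.0594). The difference between the backgrounds was 0.10 ± 0.05 and did not pass (adjusted p = 0.282).

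Ndst1 encodes an N-deacetylase and N-sulfotransferase, the enzyme that makes the first modification of the chain. It changed in opposite directions with β-catenin in the 2 backgrounds. Its log2 level was 9.13, 9.04 and 9.07 in ERT2 WT and 9.47, 9.33 and 9.58 in Cre-ERT2 WT libraries. In KO cells it was 9.53, 9.33 and 9.38 with ERT2 and 9.14, 9.07 and 9.12 with Cre-ERT2. All 3 Cre-ERT2 libraries were above the ERT2 libraries in WT cells, and all 3 were below them in KO cells. The log2 difference was 0.38 ± 0.06 (SE) in WT cells and -0.31 ± 0.06 in KO cells. The effect in KO cells minus that in WT cells was -0.68 ± 0.09, the value Ndst1 was picked on. The order of the group means was ERT2 WT (9.08), Cre-ERT2 KO (9.11), ERT2 KO (9.42) and Cre-ERT2 WT (9.46). The first pair and the last pair of neighbors did not differ beyond their SDs, whereas the middle step of 0.31 did. KO libraries were thus above WT libraries with ERT2 (0.33 ± 0.06) and below them with Cre-ERT2 (-0.35 ± 0.06). The gene lies on chromosome 18, at 60684494 to 60748650. Ndst1 varied more between replicates than 90.1% of 1678 genes of similar mean.

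**Figure D2:**
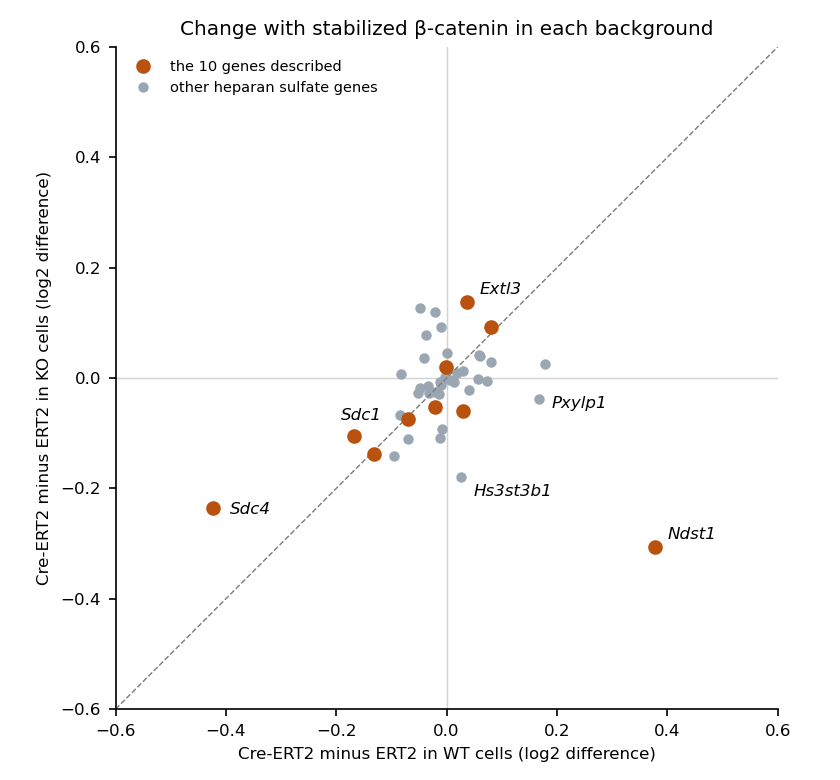
Log2 difference of Cre-ERT2 minus ERT2 libraries in KO cells (vertical) against that in WT cells (horizontal) for the 44 heparan sulfate genes with a row, 1 point a gene, with the 10 genes described in orange. The dashed line marks equal values. Ndst1 lies at 0.38 and -0.31, away from the line, and Sdc4 at -0.42 and -0.24.

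Ndst2, the second N-deacetylase and N-sulfotransferase, was called in no comparison. Its values ranged from 6.38 to 7.07, both ends in the Cre-ERT2 WT group, and its replicate spread was above that of 97.8% of 874 genes of similar mean. The 95% interval of its β-catenin effect in KO cells ran from -0.42 to 0.15, wide enough to hold the value of Ndst1 there. In WT cells it ran from -0.42 to 0.16 and did not hold the Ndst1 value of 0.38. For the difference between backgrounds it ran from -0.41 to 0.40 and did not hold the Ndst1 value of -0.68. Without the first Cre-ERT2 WT library, at 6.38, the KO against WT difference with Cre-ERT2 was -0.25 (adjusted p = 0.0400) in place of -0.06 (adjusted p = 0.716).

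Hs6st1, a 6-O-sulfotransferase, was the member with the largest rise in KO cells. It was at 9.62, 9.60 and 9.62 in ERT2 WT and at 10.42, 10.45 and 10.50 in ERT2 KO libraries. With Cre-ERT2 it was at 9.63, 9.65 and 9.66 in WT and at 10.42, 10.44 and 10.33 in KO libraries. The KO and WT libraries did not overlap. Hs6st1 rose by 1.79-fold with ERT2 (log2 difference 0.84 ± 0.03, SE, adjusted p = 1.46e-10) and by 1.68-fold with Cre-ERT2 (0.75 ± 0.03, adjusted p = 4.22e-10). β-catenin gave 0.03 ± 0.03 in WT and -0.06 ± 0.03 in KO cells, neither past the test (adjusted p = 0.617 and 0.257), and the difference between backgrounds was -0.09 ± 0.04 (adjusted p = 0.321). The gene lies on chromosome 1, at 36068400 to 36106446.

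Glce, the epimerase that turns glucuronic into iduronic acid, and Hs2st1, the 2-O-sulfotransferase that acts on it, were called in no comparison of the main fit. Glce lay between 8.14 and 8.29 in all 12 libraries. Its largest difference was -0.07 ± 0.03 in Cre-ERT2 KO against Cre-ERT2 WT libraries (adjusted p = 0.0581), which passed when the first ERT2 WT or the second Cre-ERT2 KO library was left out (adjusted p = 0.0356 and 0.0491). That difference also passed with each library centered on its median, with quantile normalization and with the same prior variance for all genes. Its lowest adjusted p among the alternatives was 0.00255. With ERT2, Glce passed under quantile normalization (adjusted p = 0.0192). Hs2st1 lay between 9.74 and 10.01, and its β-catenin effects were -0.07 ± 0.05 in both backgrounds. Without the third ERT2 WT library, its highest, Hs2st1 was 0.10 higher in ERT2 KO than in ERT2 WT libraries (adjusted p = 0.0371), against 0.04 with all libraries.

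**Figure D3:**
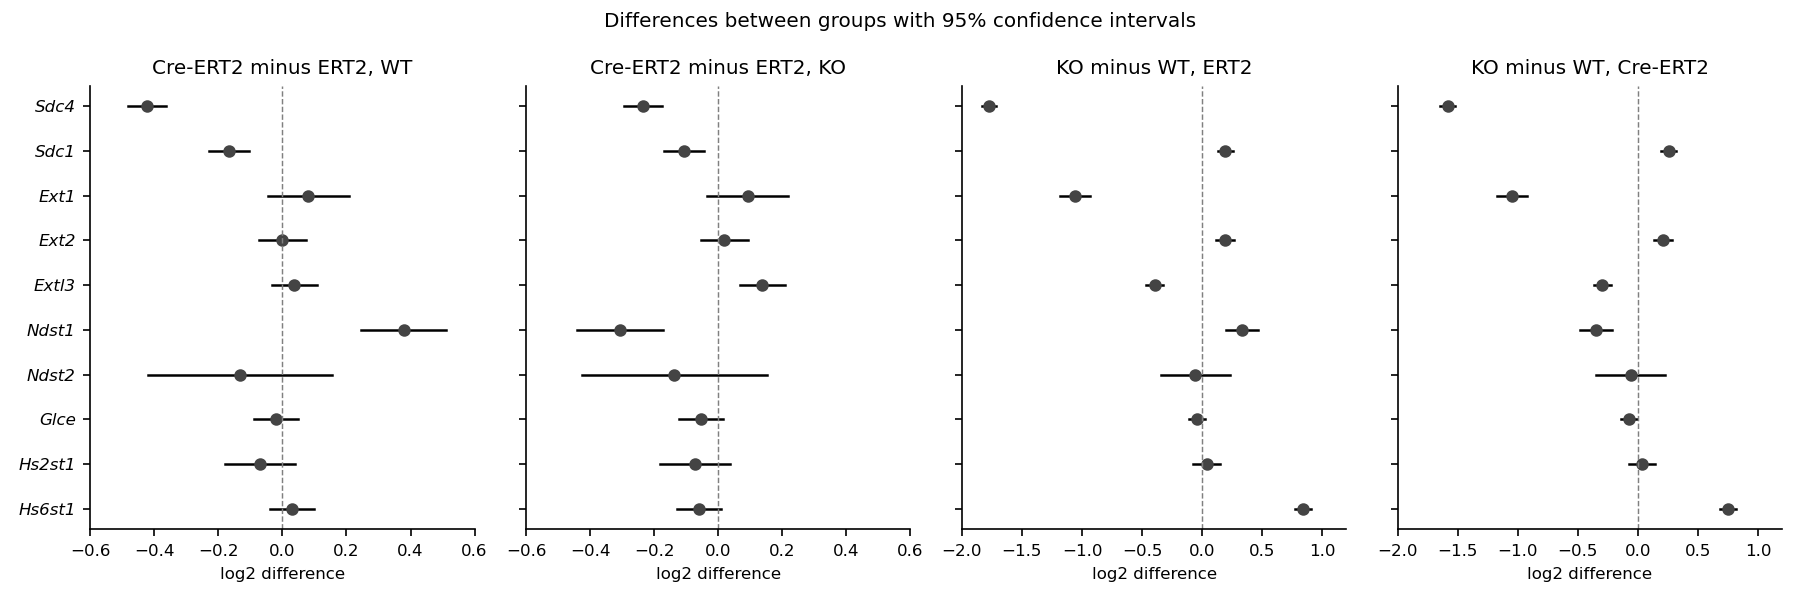
Log2 difference of each of the 10 genes in 4 comparisons (horizontal axis) with its 95% confidence interval from the fit over all 12 libraries. The intervals of Ndst1 are a description and no test, since it was picked on such values. The same holds for Sdc4, except for its β-catenin comparison in KO cells. The 2 β-catenin panels run from -0.6 to 0.6 and the 2 KO against WT panels from -2 to 1.2. Sdc4 and Ext1 lie to the left of 0 and Hs6st1 to the right in both KO against WT panels.

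In the comparison of β-catenin in WT cells, 3 of the 10 genes were called, against 11.9% of all genes. Ndst1 was the 1 called higher, where 5.93% of all genes were, and Sdc1 and Sdc4 were called lower, where 5.95% were. In KO cells 4 of the 10 were called, against 12.6% of all genes, with Extl3 higher (7.27% of all genes) and Ndst1, Sdc1 and Sdc4 lower (5.33%). For the difference between these effects, 2 of the 10 were called, against 4.53% of all genes, Sdc4 upward (2.71%) and Ndst1 downward (1.82%). Ndst1 and Sdc4 were picked on such values, so nothing is read from these counts for them.

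Between KO and WT cells 7 of the 10 were called with either vector, where 59% of all genes were called with ERT2 and 58.9% with Cre-ERT2. With ERT2, 4 were higher (29.8% of all genes) and 3 lower (29.3%), and with Cre-ERT2, 3 were higher (30.4%) and 4 lower (28.6%), Ndst1 being the gene that changed side. These counts include Ndst1 and Sdc4, which were picked on values of the same libraries, and nothing is read from them for those genes. Of the other 8 genes, 5 were called with each vector, 3 higher and 2 lower, a share of 62.5% that is near the share of all genes. Among these 8, Ext1 and Hs6st1 were called and changed by at least 0.5 with both vectors, where 7.33% (ERT2) and 7.46% (Cre-ERT2) of all genes did. The median of the absolute log2 difference over the 8 was 0.19 with ERT2 and 0.23 with Cre-ERT2, against 0.10 and 0.11 over all genes. The ERT2 and the Cre-ERT2 comparison use separate libraries, but they are not independent. The lines were edited and grown before the vectors were added, so clone differences can enter both. Both also use the spread estimated over all 12 libraries.

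The wider pathway was described with 66 genes written out by role, of which 44 had a row, the 10 among them. Between KO and WT cells 29 of the 44 were called with ERT2, 16 higher and 13 lower, and 32 with Cre-ERT2, 15 higher and 17 lower. Without Ndst1 and Sdc4 these were 27 of 42 (64.3%) and 30 of 42 (71.4%), against 59% and 58.9% of all genes. The median of the 44 genes' log2 differences was 0.03 with ERT2 and -0.01 with Cre-ERT2, against 0.00 over all genes with either vector. With β-catenin, 4 of the 44 were called in WT and 7 in KO cells. Without Ndst1 and Sdc4 these were 2 of 42 (4.76%) and 5 of 42 (11.9%), against 11.9% and 12.6% of all genes.

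The 7 linker genes had 4 lower and 0 higher in KO cells with ERT2, and 5 lower and 0 higher with Cre-ERT2. Of all genes, 29.3% and 28.6% were lower and 29.8% and 30.4% higher in these comparisons. Xylt1, a xylosyltransferase that puts the first sugar on the core protein, fell most among them. Its level lay between 8.64 and 8.77 in WT libraries and between 6.75 and 6.93 in KO libraries. It fell by 3.68-fold with ERT2 (log2 difference -1.88 ± 0.03, SE) and by 3.78-fold with Cre-ERT2 (-1.92 ± 0.03). The other called linker genes changed by at most 0.17. Of the 5 polymerase genes, Extl2 rose besides Ext2, by 0.48 ± 0.04 and 0.66 ± 0.04 with the 2 vectors.

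Of 16 sulfation and epimerization genes 8 had a row. Between KO and WT cells 5 of the 8 were higher and 0 lower with ERT2, and 4 were higher and 1, Ndst1, lower with Cre-ERT2. Without Ndst1, 4 of 7 were called with each vector (57.1%), all higher, against 59% and 58.9% of all genes called and 29.8% and 30.4% called higher. Hs3st3b1 and Hs3st2, which encode 3-O-sulfotransferases that add a rare late modification, rose far more than Hs6st1. Hs3st3b1 lay between 7.14 and 7.25 in WT libraries and between 9.65 and 9.95 in KO libraries. It rose by 6.53-fold with ERT2 (log2 difference 2.71 ± 0.04) and by 5.66-fold with Cre-ERT2 (2.50 ± 0.04), and its close copy Hs3st3a1 has no row in the table used here, so reads shared between them are uncertain. Hs3st2 lay between 7.02 and 7.10 in WT and between 8.78 and 8.93 in KO libraries, a rise of 3.57-fold (1.84 ± 0.03) and 3.34-fold (1.74 ± 0.03).

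**Figure D4:**
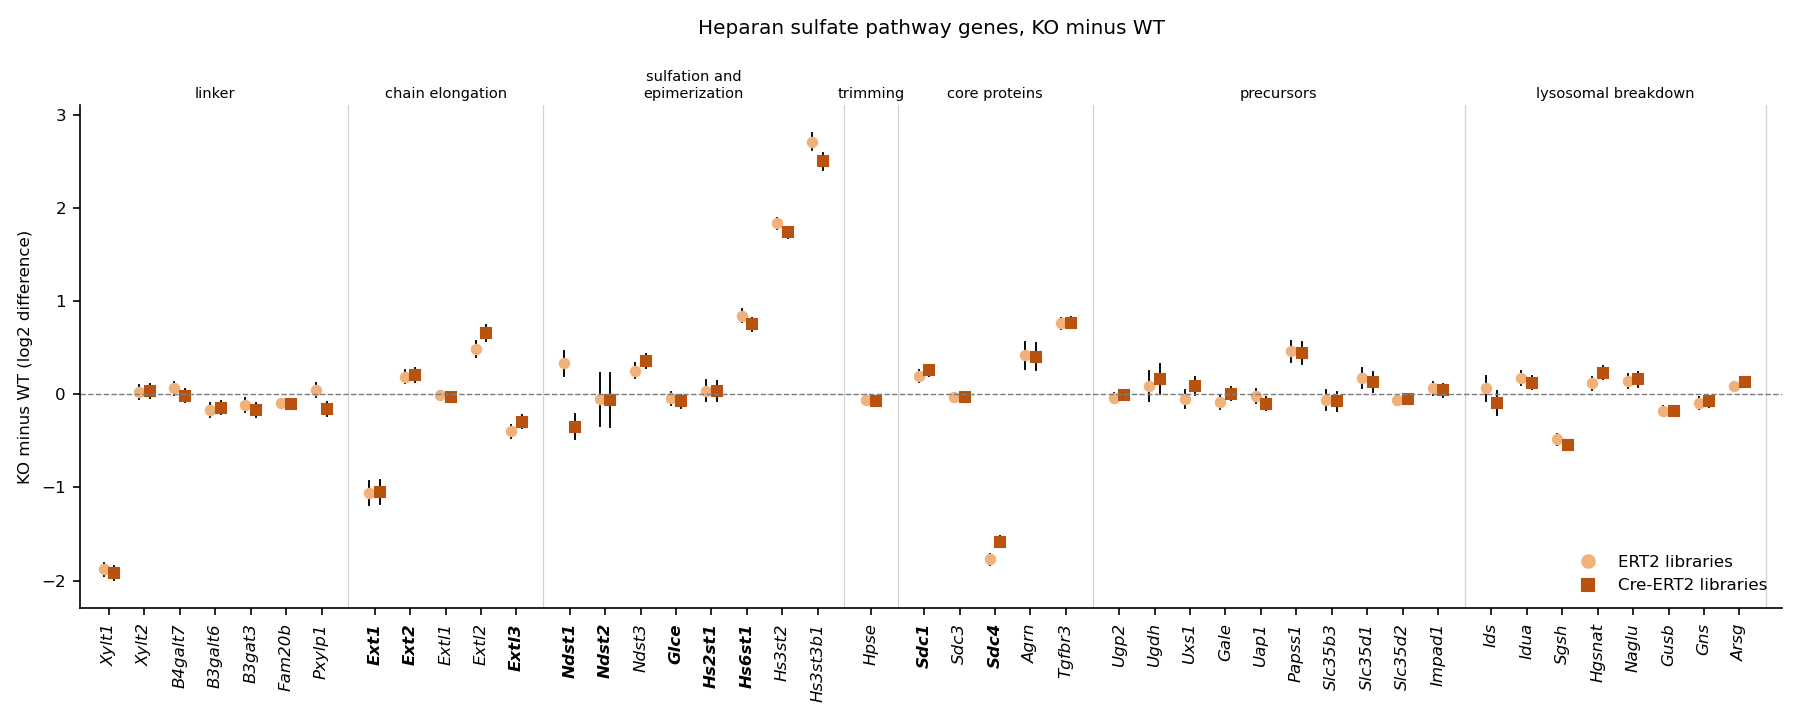
Log2 difference of KO minus WT (vertical axis) for the 44 heparan sulfate genes with a row, grouped by role, with circles for ERT2 libraries, squares for Cre-ERT2 libraries and lines for 95% confidence intervals. The 10 genes described are in bold. The intervals of Ndst1 and Sdc4 are a description and no test, since both were picked on values of these libraries. Hs3st3b1 (2.71 and 2.50) and Hs3st2 lie highest, and Xylt1 and Sdc4 lowest.

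Of 14 core protein genes 5 had a row, and no glypican was among them. Tgfbr3, the betaglycan coreceptor for TGF-β, rose in KO cells by 0.76 ± 0.03 with ERT2 and 0.77 ± 0.03 with Cre-ERT2. Of the 10 precursor genes with a row 4 were called with each vector, where 59% and 58.9% of all genes were, and Papss1, which makes the sulfate donor, rose by 0.46 ± 0.05 and 0.44 ± 0.05. Of 8 genes of lysosomal breakdown 7 were called with each vector, against the same shares of all genes, 4 higher and 3 lower, and Sgsh, a sulfamidase, fell by 0.48 and 0.54 on the log2 scale (SE 0.03 each).

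Chondroitin sulfate shares the linker with heparan sulfate and is built by other enzymes. Of 11 chondroitin enzyme genes with a row, 6 were lower and 3 higher in KO cells with ERT2, and 7 lower and 3 higher with Cre-ERT2. Of all genes, 29.3% and 28.6% were lower and 29.8% and 30.4% higher. The sulfotransferases Chst12 (-0.72 and -0.68, SE 0.04), Chst3 (-0.38 and -0.60, SE 0.04), Chst11 (-0.54 and -0.28, SE 0.04) and Chst15 (-0.52 and -0.37, SE 0.04) fell. Dsel (0.67 and 0.64, SE 0.06), an epimerase, and Ust (0.59 and 0.62, SE 0.03), a uronyl sulfotransferase, rose. Srgn, the serglycin core protein of secretory granules, fell by 0.87 and 0.91 on the log2 scale (SE 0.03).

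With β-catenin, 2 of the 11 chondroitin enzyme genes were called in WT cells, both higher. In KO cells 4 were called higher and 1 lower. Of all genes, 5.93% were higher in WT cells, and 7.27% higher and 5.33% lower in KO cells. Chst3 rose in WT (0.52 ± 0.04, adjusted p = 2.92e-06) and in KO cells (0.31 ± 0.04, adjusted p = 0.000202). Chst15 rose in WT (0.14 ± 0.04, adjusted p = 0.0331, called in 13 of 21 alternatives) and in KO cells (0.29 ± 0.04, adjusted p = 0.000285). Adam10, a protease that sheds cell surface proteins, rose in WT (0.23 ± 0.03, adjusted p = 0.000378) and in KO cells (0.14 ± 0.03, adjusted p = 0.00906), and was lower in KO than in WT cells (-0.35 ± 0.03 and -0.44 ± 0.03). It was 1 of 7 listed syndecan partner genes with a row, of which 3 were called higher with β-catenin in WT cells and Adam10 alone in KO cells.

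The genes whose centered profile over the 12 libraries was most like that of Ndst1, by the root mean square difference of log2 values, were Gm2026 (0.117), Kmt2d (0.122) and Smad7 (0.133). For Sdc4 they were Padi2 (0.110), Ly6a (0.140) and Cd2 (0.150). These are distances between profiles and carry no test.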

How the data were processed

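The authors quantified reads with Salmon 1.4.0, aligned them with STAR 2.7.6 to mm10 (GRCm38) and analyzed them with DESeq2 1.30.1, per the submitters' processing notes and the study's methods. Values were deposited on a log2 scale, normalized between libraries by the authors. Its transformation and the genes left out are not given in the sources used here, so fold changes of weakly expressed genes may be understated. Depth is unknown, and the precision of a value comes from 3 libraries per group.

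Groups were taken from the sample titles. limma 3.58.1 in R 4.3.3 fitted 4 group means to the 12 libraries (eBayes with a mean-dependent prior), with 5 contrasts adjusted over 12151 genes by Benjamini-Hochberg, after a check on simulated data. An exact permutation test of 3 against 3 libraries cannot go below p = 0.1 and was not used for calls. The members and gene lists, written from general knowledge, were chosen with earlier results of these data known. Named were the 10 genes, up to 15 other list genes called with a change of at least 0.3, the edited genes, markers, and the 3 genes most like Ndst1 and Sdc4. Genes named outside this rule (Pxylp1, Hs3st3a1) were chosen after their values or rows were seen. Alternatives were a replicate block, each library left out, other scalings, pseudocounts, a filter, another prior, a stricter threshold and fits of only the groups compared. Positions came from GENCODE M21 on GRCm38, an annotation release other than the one the authors used. Figures were drawn with matplotlib 3.10.9.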

Additional observations from a re-analysis of the deposited data

Results flagged for a closer look

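For Ndst1, the β-catenin effect in KO cells minus that in WT cells was -0.684 on the log2 scale. Every Cre-ERT2 library was above the ERT2 libraries in WT cells and below them in KO cells, which is what drew attention to it. Ndst1 was picked on this difference, so no p is given for it, although the fit over all genes counted it among the calls.

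For Chst11, a chondroitin 4-O-sulfotransferase, the same difference was 0.265 ± 0.053 (SE, adjusted p = 0.0127 in limma). It gained 0.32 ± 0.04 with β-catenin in KO cells and 0.06 ± 0.04 in WT cells, where the test was not passed (adjusted p = 0.399).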

How the results depend on the processing

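All KO against WT calls of Ext1, Ext2, Extl3, Hs6st1 and Sdc1 held under the alternatives run, and no called value of the 10 genes changed sign. The 4 members called with β-catenin in KO cells became 2 at an adjusted p under 0.01 and 2 to 4 with 1 library left out, 2 without the second ERT2 KO or the second Cre-ERT2 KO library. The 7 heparan sulfate genes called there became 2 at an adjusted p under 0.01, 4 in a fit of only the groups compared, and 3 to 8 with 1 library left out, 3 without either of those libraries and 4 without the third ERT2 KO library. For the difference between backgrounds, the 2 members became 1 and the 3 heparan sulfate genes became 1 at an adjusted p under 0.01. Those 3 genes became 2 to 5 with 1 library left out, 5 without the third Cre-ERT2 KO library. In the main fit, without Ndst1 and Sdc4, 1 of 42 heparan sulfate genes (2.38%) was called for this difference, against 4.53% of all genes. The 2 members called for this difference are Ndst1 and Sdc4, which were picked on values that enter it, so nothing is read from its counts for them. Ndst1 is also among the 4 members called in KO cells, and nothing is read from that count for it. Of the 3 genes most like Ndst1, 2 were kept with the mean absolute difference. Sdc1 in KO cells with β-catenin also missed the threshold in a fit of only the groups compared (adjusted p = 0.0864). The cause of these changes was not tested.

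Centering each library on its median gave 2866 genes called higher and 4747 lower between KO and WT with ERT2, against 3616 and 3559 as reported, and 2983 and 4789 with Cre-ERT2, against 3688 and 3473. Among the 10 genes Glce was then called lower with Cre-ERT2. Whether the replicate numbers pair the libraries was not settled. Of 18 pairs of same-numbered libraries, 1 had correlated deviations over 0.1, and the correlations ran from -0.10 to 0.24. Each ERT2 KO library matched best the Cre-ERT2 KO library of its number (0.088, 0.083 and 0.084). Each ERT2 WT library also matched best the ERT2 KO library of its number (0.056, 0.0078 and 0.028). The ERT2 WT libraries did not match by number in the Cre-ERT2 KO group. In the other pairs of groups not every library matched by number. With the replicate number as a block, the heparan sulfate genes called between KO and WT numbered 27 with ERT2 and 31 with Cre-ERT2, and the members called numbered 7 and 7. In the main fit 59% and 58.9% of all genes were called in these comparisons. Without counts, the part of sequencing depth in any value could not be assessed.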
